A study of Mus musculus with 4 samples.

Results

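Transcripts of 10 nuclear partners of beta-catenin were examined in mouse embryonic stem cells with and without glycogen synthase kinase 3. The genes were the TCF/LEF factors Lef1, Tcf7, Tcf7l1 and Tcf7l2, the Groucho corepressors Tle1, Tle2, Tle3 and Tle4, and the co-activator genes Bcl9 and Pygo2. They were chosen by name, each symbol matched 1 gene ID, and they are 10 of the 46603 gene IDs in the authors' deposited table. The study sequenced polyadenylated RNA of 2 wild type (Gsk3a+/+;Gsk3b+/+) and 2 Gsk3a-/-;Gsk3b-/- samples, called biological replicates, with no word on whether a genotype is more than 1 clone. The labels give all samples as embryonic day 16, the design text gives another value, and neither describes the mutant alleles. All were grown with fetal bovine serum and leukaemia inhibitory factor, on gelatin-coated plates that carried irradiated mouse embryonic fibroblasts, so the RNA can include that of feeder cells. The table names its groups A and B and no source used here says which genotype is which, so every difference below is group B over group A.

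In canonical Wnt signalling, beta-catenin that escapes phosphorylation by glycogen synthase kinase 3 enters the nucleus and binds TCF/LEF proteins, which sit on DNA through an HMG box. Without beta-catenin these factors recruit Groucho (TLE) corepressors and hold target genes down, and beta-catenin brings co-activators in their place, among them BCL9, which tethers Pygopus. In embryonic stem cells TCF7L1 is known mainly as a repressor that limits the naive gene programme, TCF7 mainly as an activator with beta-catenin, and LEF1 is itself a product of a Wnt target gene.

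Levels are normalized counts, that is, reads of a gene after division by a size factor for its library. The deposited group means could be split into the whole reads of their 2 libraries, called A1, A2, B1 and B2. Library totals were 112655210 to 146326307 reads. Gsk3a, a targeted gene, had 6353 and 7104 normalized counts in A1 and A2 and 1697 and 1347 in B1 and B2, and Gsk3b had 5438, 6285, 5051 and 5002. Gsk3a passed the authors' test as lower (adjusted p 4.9e-24, with -2.14 on the log2 scale), and limma also called it (adjusted p = 0.0255). Gsk3b passed neither test (-0.22 and an adjusted p of 0.984 in the authors' test). The Gsk3a values point to B as the Gsk3a-/-;Gsk3b-/- samples. With Gsk3b short of the threshold and the mutant alleles not described, the names A and B were kept. All 10 embryonic stem cell markers were present in every library, the lowest value being 11647 normalized counts for Dppa4 in B2. For 8 of these 10 both B libraries lay below A1 and A2, Lin28a and Utf1 passed the authors' test as lower, and the median log2 fold change was -0.39. Over the 20465 genes averaging at least 10 normalized counts, 26% were lower in B1 and B2 than in either A library. Another 26.4% were higher, so the groups did not overlap for 52.5%. Marker counts of this kind in this paragraph are to be read against these shares. Of 23 feeder fibroblast markers none was at 0, 0 had non-overlapping groups, and their summed level was 296384 and 204170 in A1 and A2 against 138256 and 440266 in B1 and B2. For 10 of the 13 endoderm markers that averaged at least 10, B1 and B2 both exceeded A1 and A2, and the summed level of all 14 was 90769 and 73712 in A and 346560 and 171064 in B, with Afp at 0 in A2 and B2, and Foxa1 passed the authors' test as higher. Of 10 macrophage markers none was at 0, 7 were higher in both B libraries and 2 lower, and the median log2 fold change was 1.43. Lyz2 and Ptprc passed as higher and Mrc1 as lower. The summed level was 27909 and 29439 in A against 21381 and 28486 in B. Laptm5 alone made up 23928 and 25863 of it in A and 17665 and 24220 in B. All 2601 genes of the X chromosome in the table are listed at 0 and were not analysed further.

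Of the 10 genes, 1 was higher and 1 lower in group B at an adjusted p of 0.05 in the authors' DESeq test, against 1.54% higher, 1.92% lower and 3.46% in either direction among the 30237 genes tested. Tcf7 rose 1.55-fold, Tle4 fell to 0.656 of its level in group A, and the other 8 genes did not pass. The median log2 fold change of the 10 genes was 0.17, with 8 values above 0 and 2 below, against a median of 0.01 over all genes tested. All 10 genes had a mean of at least 10 normalized counts. So did 20465 of the genes tested, among them all 466 higher and 581 lower genes. The test rests on 2 libraries a group, and limma on the recovered counts, which called 2.01% of 20465 genes, called none of the 10 at the same threshold, with 3 of them at an unadjusted p under 0.05, where 20.7% of the 20465 genes lay. In the authors' test 4 of the 10 had an unadjusted p under 0.05, against 10.5% of the 30237 genes, which include genes averaging under 10.

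**Figure D1:**
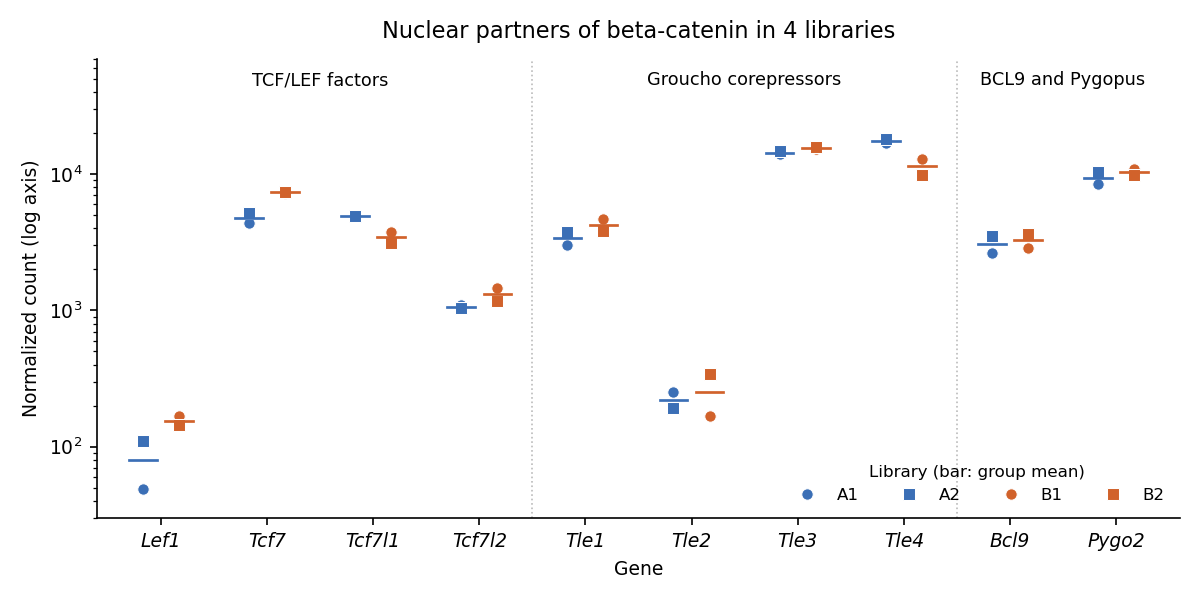
Normalized counts (log axis) of the 10 genes in the 4 libraries, circles for A1 and B1, squares for A2 and B2, and bars for the group means. Tcf7 is higher in both B libraries, Tcf7l1 and Tle4 are lower in both, and the libraries of the groups overlap for Tle2, Bcl9 and Pygo2.

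The sequences just before the annotated starts are shown for both genes past the threshold and for Lef1, because the factors bind a short DNA word and Lef1 and Tcf7 are among the genes they are known to regulate. They come from RefSeq on GRCm38.p6, the assembly of mm10, and each is the 250 bases before a start that no exon of a protein-coding gene in GENCODE M21 covers, written 5′ to 3′ on the gene's strand. Lef1 has 4 start windows in that table, and the first is the most upstream. The second Lef1 stretch and that of Tcf7l2 lie before starts further inside those genes and are shown because they hold the word searched for, in capitals. That word was CAAAG with an A or a T at each of the 2 places before it, searched on both strands, so that it reads CTTTG followed by 2 such letters where it lies on the other strand.
Tcf7, chr11:52283015-52283264, minus strand: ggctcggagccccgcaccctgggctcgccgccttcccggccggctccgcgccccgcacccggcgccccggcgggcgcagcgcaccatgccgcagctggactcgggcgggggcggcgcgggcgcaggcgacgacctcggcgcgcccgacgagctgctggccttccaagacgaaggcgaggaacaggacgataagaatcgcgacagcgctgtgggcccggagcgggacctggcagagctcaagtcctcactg
Tle4, chr19:14598184-14598433, minus strand: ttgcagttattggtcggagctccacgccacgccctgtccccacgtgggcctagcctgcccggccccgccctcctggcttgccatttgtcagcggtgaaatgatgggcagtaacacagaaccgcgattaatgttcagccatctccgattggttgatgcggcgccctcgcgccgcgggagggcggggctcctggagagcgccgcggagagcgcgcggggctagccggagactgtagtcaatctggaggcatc
Lef1, chr3:131110047-131110296, plus strand: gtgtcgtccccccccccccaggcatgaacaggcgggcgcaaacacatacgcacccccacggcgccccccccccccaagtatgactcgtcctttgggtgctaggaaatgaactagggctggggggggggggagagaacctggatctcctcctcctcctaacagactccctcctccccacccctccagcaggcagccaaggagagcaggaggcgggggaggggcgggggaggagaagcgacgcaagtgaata
Lef1, chr3:131156044-131156293, plus strand: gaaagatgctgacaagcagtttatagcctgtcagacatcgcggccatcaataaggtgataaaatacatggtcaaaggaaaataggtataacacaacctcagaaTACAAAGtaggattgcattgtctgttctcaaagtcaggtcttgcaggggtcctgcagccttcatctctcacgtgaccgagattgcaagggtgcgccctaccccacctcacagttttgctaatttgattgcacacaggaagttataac
Tcf7l2, chr19:55895071-55895320, plus strand: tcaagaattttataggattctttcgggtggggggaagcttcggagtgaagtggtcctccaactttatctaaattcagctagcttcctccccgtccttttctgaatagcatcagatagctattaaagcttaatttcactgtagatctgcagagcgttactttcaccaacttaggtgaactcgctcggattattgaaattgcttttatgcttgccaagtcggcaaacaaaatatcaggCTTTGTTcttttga

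Windows of 250 bases before to 50 after a start were available for all 10 genes, 18 in all, and 2 of them held the word, in the forms TACAAAG for Lef1 and, for Tcf7l2, CTTTGTT. That is 11.1% of the windows of these genes, against 16.9% of all 32851 windows. Counted by gene, it is 20.0% of the 10 genes against 18.9% of all 27025 genes with a window. No word was found in the windows of Tcf7, Tcf7l1 and Tle4, which says only that these letters are absent there. In the upstream Tcf7 stretch an ATG at base 86 opens a frame of 213 bases without a stop to the end of the window. The stretch could therefore be coding sequence, and its lack of the word need not describe a promoter. Whether transcripts start further upstream was not tested.

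Among the TCF/LEF factors, Tcf7 (ENSMUSG00000000782, chromosome 11, 52252371 to 52283014, minus strand, mm10) was the one past the threshold. It had 4390 and 5151 normalized counts in A1 and A2 and 7325 and 7458 in B1 and B2. The groups did not overlap, and B1 and B2 differed by 0.03 on the log2 scale against 0.23 between A1 and A2. The authors' deposited table gives a log2 fold change of 0.63 (fold change 1.55, adjusted p 0.0220). With limma on log2(normalized count + 1) it was 0.64 (SE 0.12, 95% interval 0.34 to 0.94, adjusted p = 0.0627), so the call did not hold there.

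Tcf7l1 (ENSMUSG00000055799, chromosome 6, 72626378 to 72789254, minus strand), the repressor of the family in these cells, had 4941 and 4933 normalized counts in A1 and A2 and 3759 and 3109 in B1 and B2. The A libraries were almost equal, and both B libraries were below them. The authors' deposited table lists it at -0.52 on the log2 scale, short of the threshold (adjusted p 0.133). In limma it was -0.53 (SE 0.13, 95% interval -0.86 to -0.20, adjusted p = 0.109). It was -0.67 without B1 and -0.39 without B2. An exon of Gm15401 on the opposite strand overlaps 179 bases of Tcf7l1 exons, and with no stated strand setting for the counting, reads of the 2 genes cannot be told apart there.

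Tcf7l2 (ENSMUSG00000024985, chromosome 19, 55741820 to 55933654, plus strand), the member best known from intestine and metabolic tissues, had 1099, 1036, 1450 and 1173 normalized counts in A1, A2, B1 and B2. B2 stood just above A1, by less than the distance between B1 and B2. The log2 fold change was 0.30 in the authors' deposited table (adjusted p 0.757), and the limma interval of -0.13 to 0.71 includes 0. It was 0.14 without B1 and 0.44 without B2.

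Lef1 (ENSMUSG00000027985, chromosome 3, 131110471 to 131224356, plus strand) had the largest fold change of the 10 genes and the lowest counts. Its reads were 53 and 112 in A1 and A2 and 182 and 121 in B1 and B2, which gives 48.8, 111, 167 and 143 normalized counts. The exact Poisson 95% intervals, which cover counting error only, were 36.6 to 63.9 in A1 and 91.2 to 133 in A2, so the 2 A libraries differed by more than their counting error, and the A2 interval overlapped that of B2 (119 to 171). Its log2 fold change, 0.96 by the authors' deposited table, did not pass (adjusted p 0.251), and limma gave 1.06 (SE 0.44, 95% interval -0.02 to 2.14). It was 0.48 without A1 and 1.64 without A2. Exons of Gm43352 on the opposite strand cover 1208 bases of Lef1 exons, so part of this low count could not be assigned to a strand.

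The mix of the 4 factors was followed within each library, where the library's scaling has no part in ratios and shares. The ratio of Tcf7l1 to Tcf7 counts was 1.13 and 0.958 in A1 and A2, and 0.513 and 0.417 in B1 and B2. Both B libraries lay below both A libraries, by 1.17 on the log2 scale. The exact two-sided permutation test gave p = 0.333, the smallest that 4 libraries in 6 splits allow. Tcf7l1 was lower and Tcf7 higher in both B libraries, so this order was fixed beforehand and the p-value adds no support. Per kilobase of annotated exon, Tcf7 made up 54.6% and 58.6% of the summed TCF/LEF level in A1 and A2 and 71.0% and 75.1% in B1 and B2. Tcf7l1 made up 41.1% and 37.5% in the A libraries and 24.4% and 20.9% in the B libraries. Tcf7l2 held 3.52% to 4.20% and Lef1 0.181% to 0.483% over all 4. The summed level per kilobase, which does depend on library scaling, was 3063 and 3350 in A and 3933 and 3783 in B. That is a 1.20-fold difference between the group means, against 1.55-fold for Tcf7 alone.

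**Figure D2:**
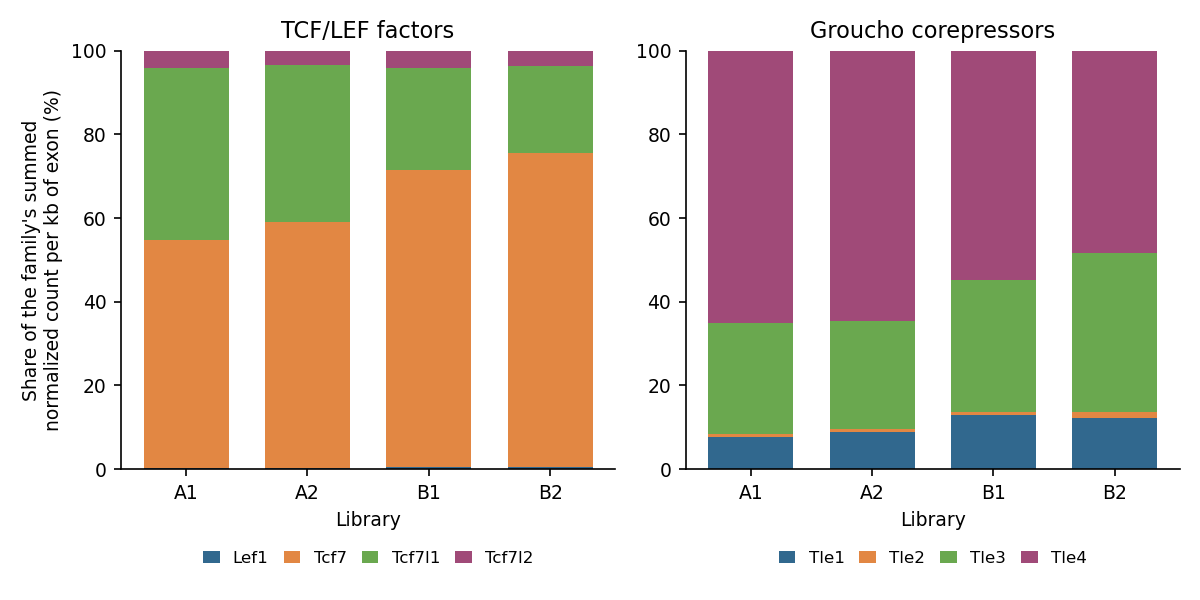
Share (%) of each gene in the summed normalized count per kilobase of annotated exon of its family, by library, for the TCF/LEF factors (left) and the Groucho corepressors (right). Tcf7 takes 54.6% to 58.6% of its family in the A libraries and 71.0% to 75.1% in the B libraries, and Tle4 goes from 64.6% to 65.1% down to 48.4% to 54.7%.

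Among the Groucho corepressors, which bind TCF/LEF factors and many other repressors and recruit histone deacetylases, Tle4 (ENSMUSG00000024642, chromosome 19, 14448150 to 14598051, minus strand) passed. It had 16867 and 18045 normalized counts in A1 and A2 and 12975 and 9913 in B1 and B2. Both B libraries were below both A libraries, and B2 was the lower by 0.39 on the log2 scale. Its log2 fold change was -0.61 by the authors' deposited table (adjusted p 0.0405). Limma gave -0.62 (SE 0.15, 95% interval -0.98 to -0.26, adjusted p = 0.0930), and the change was -0.82 without B1 and -0.43 without B2. Centred over the 4 libraries on the log2 scale, Tle4 lay at 0.26, 0.36, -0.12 and -0.50 in A1, A2, B1 and B2, and the median of the stem cell markers at 0.17, 0.22, -0.14 and -0.24, the same order of libraries. Tcf7l1, at 0.27, 0.26, -0.13 and -0.40, also had B1 below the A libraries and B2 lowest. The part of the stem cell marker shift in the values of either gene was not tested.

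Tle3 (ENSMUSG00000032280, chromosome 9, 61372366 to 61418497, plus strand) was read about as often as Tle4 and stayed within a narrow range. Its normalized counts were 13953, 14747, 15357 and 15891 in A1, A2, B1 and B2. The log2 fold change was 0.12 in the authors' deposited table (adjusted p 1), with a limma interval of -0.10 to 0.34. The ratio of Tle4 to Tle3 counts was 1.21 and 1.22 in A1 and A2 and 0.845 and 0.624 in B1 and B2, a difference of -0.74 on the log2 scale. The exact permutation p was again 0.333, the smallest possible. Tle4 was lower and Tle3 higher in both B libraries, so this order of the ratios was fixed beforehand and the p-value adds no support.

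Tle1 (ENSMUSG00000008305, chromosome 4, 72117142 to 72200919, minus strand) had 3014, 3785, 4710 and 3802 normalized counts in A1, A2, B1 and B2. A2 and B2 were nearly the same, with A1 lower and B1 higher. Its log2 fold change, 0.32 per the authors' deposited table, did not pass (adjusted p 0.747), and the limma interval was -0.10 to 0.75. It was 0.16 without A1 and 0.17 without B1, and 0.49 without A2. Exons of Gm11250 overlap 247 bases of Tle1 exons on the opposite strand.

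Tle2 (ENSMUSG00000034771, chromosome 10, 81574561 to 81590845, plus strand) varied more within groups than between them. It had 251 and 192 normalized counts in A1 and A2 and 167 and 340 in B1 and B2. B2 and B1 differed by 1.03 on the log2 scale, against a difference of 0.20 between the groups in the authors' deposited table (adjusted p 1). B1 was the lowest library and B2 the highest, which is also the order of the summed feeder fibroblast markers given above, from B1 through A2 and A1 to B2. The part of feeder cells in the Tle2 values was not tested, and in bulk RNA fewer cells of a type and less RNA per cell cannot be told apart. Exons of Gm15917 overlap 98 bases of Tle2 exons on the opposite strand.

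Per kilobase the summed level of the 4 corepressors was 4542 and 4895 in A1 and A2 and 4161 and 3593 in B1 and B2, with both B libraries below both A libraries. Tle4 made up 65.1% and 64.6% of it in the A libraries and 54.7% and 48.4% in the B libraries, Tle3 26.4%, 25.8%, 31.7% and 37.9% in A1, A2, B1 and B2. Tle1 ranged from 7.62% to 13.0% and Tle2 from 0.630% to 1.52%. Lengths here are the union of all annotated exons. With the longest coding transcript as the length, a choice made after seeing the data, Tle4 was still the larger share in A1 and A2 (51.7% and 51.3%), but Tle3 was larger in B1 and B2 (42.5% and 49.0%, against 41.1% and 35.0% for Tle4). Tcf7 stayed above Tcf7l1 in all 4 libraries with either length. With the longest coding transcript, Tcf7 made up 47.9% and 51.9% of its family in A1 and A2 and 63.9% and 68.6% in B1 and B2.

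Neither co-activator gene differed between the groups beyond the spread of their libraries. Bcl9 (ENSMUSG00000038256, chromosome 3, 97203662 to 97297917, minus strand), whose product bridges beta-catenin and Pygopus, had 2623, 3539, 2894 and 3666 normalized counts in A1, A2, B1 and B2. Each group held 1 low and 1 high library. Pygo2 (ENSMUSG00000047824, chromosome 3, 89430214 to 89435128, plus strand), a PHD finger protein that reads methylated histone H3, had 8489, 10324, 10859 and 9791, with B2 below A2. The authors' deposited table gives them 0.09 and 0.13 on the log2 scale, both with an adjusted p of 1. The limma intervals were -0.39 to 0.58 for Bcl9 and -0.18 to 0.46 for Pygo2, so differences of that size are not excluded.

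**Figure D3:**
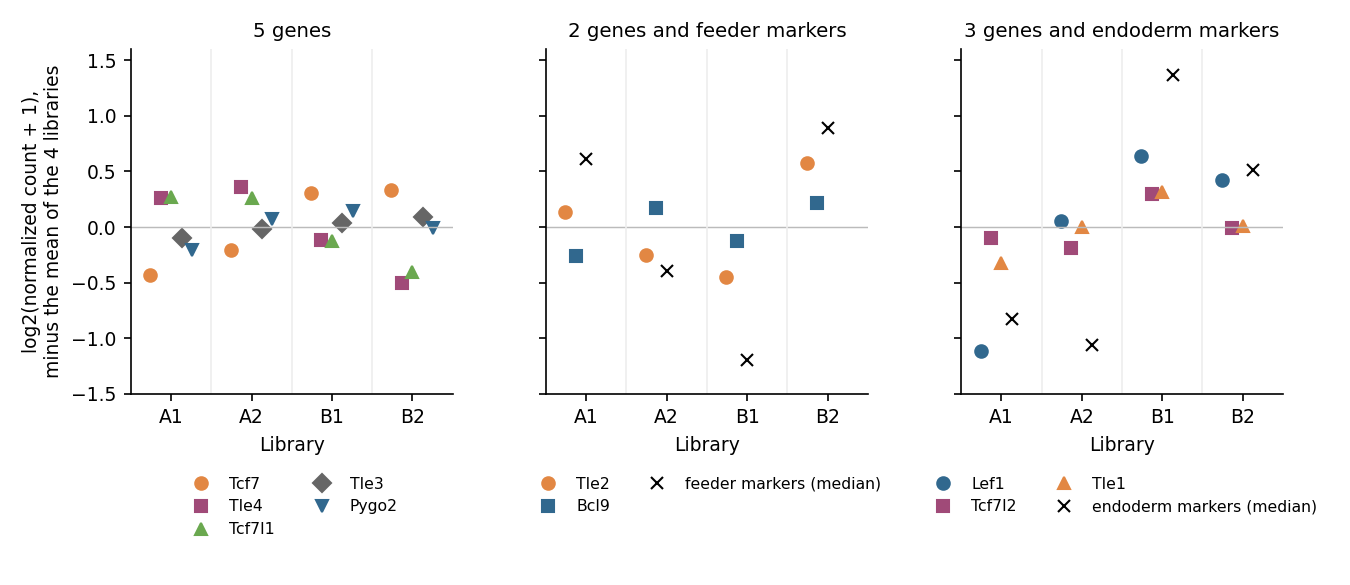
log2(normalized count + 1) of each gene in each library, minus its mean over the 4 libraries. Left, Tcf7, Tle4, Tcf7l1, Tle3 and Pygo2. Middle, Tle2 and Bcl9 with the median of the feeder fibroblast markers (crosses). Right, Lef1, Tcf7l2 and Tle1 with the median of the endoderm markers (crosses). Tle2 and the feeder markers are both lowest in B1 (-0.45 and -1.20) and highest in B2 (0.57 and 0.89), and Lef1, Tcf7l2, Tle1 and the endoderm markers are all highest in B1. Pygo2 is also highest in B1. Lef1 and Tle1 are lower in A1 than in A2, and the endoderm markers are higher in A1.

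For 5 of the 10 genes B1 and B2 both exceeded A1 and A2, and for 2 both were lower, so 70% had groups that did not overlap. Among the 20465 genes averaging at least 10 normalized counts, these shares were 26.4% above, 26% below and 52.5% in all. Those above were Lef1, Tcf7, Tcf7l2, Tle1 and Tle3, and those below were Tcf7l1 and Tle4. Lef1, Tcf7l2 and Tle1 were highest in B1, the library with the highest endoderm marker sum (346560), and so was Pygo2, whose groups overlapped. Between the A libraries that sum was higher in A1 (90769) than in A2 (73712), as was Tcf7l2. Lef1, Tle1 and Pygo2 were lower in A1 than in A2. The part of endoderm-like cells in these values was not tested. Tcf7 and Tle3 were highest in B2, where that sum was 171064.

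The 10 genes spanned a wide range of levels. Per kilobase of annotated exon, the mean of the 4 libraries was 2717 for Pygo2, 2534 for Tle4 and 2317 for Tcf7, whose ranges over libraries overlapped. Next came Tle3 (1286) and Tcf7l1 (1067), which overlapped each other and not Tcf7. Tle1 (439) and Bcl9 (377) overlapped, and below them Tcf7l2 (136), Tle2 (38.2) and Lef1 (13.4) were each separate from the next. With the longest coding transcript as the length, Tle4, Pygo2, Tle3 and Tcf7 were the upper 4, in that order, and the lower 6 kept their places.

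By distance between log2(normalized count + 1) values centred over the 4 libraries, the genes nearest to Tcf7 among 13085 named genes with a mean of at least 50 were Rin2 (distance 0.0272), Fam13b (0.0359) and Eps15 (0.0380). Eps15, for example, had 3902, 4703, 6505 and 6577 normalized counts in A1, A2, B1 and B2. Nearest to Tle4 were Lin28a (0.0531), Sdhaf1 (0.0602) and Diaph1 (0.0646). Lin28a, an RNA-binding protein of stem cells, had 28487, 28950, 21204 and 16260. With 4 libraries such nearness only describes the values.

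The wider nuclear machinery was represented by 26 other genes, among them beta-catenin itself, its inhibitors, co-activators and the histone deacetylases that Groucho proteins recruit. The X-linked genes Med12, Tbl1x and Xiap are listed at 0. Of the 23 others, 1 was higher and 0 lower in the authors' test, against 1.54% and 1.92% of the 30237 genes tested. The median log2 fold change of the 23 was -0.01. The one that passed was Tle6, a Groucho relative best known from the maternal complex of the egg, with 741 and 762 normalized counts in A1 and A2 and 1832 and 1581 in B1 and B2. The mean of the B libraries was 2.27 times that of the A libraries (1.18 on the log2 scale and an adjusted p of 1.67e-06 in the authors' deposited table), and Tle6 also passed in limma (1.18, SE 0.16, adjusted p = 0.0351). Tle6 and Tle2 lie tail to tail on chromosome 10 with 58 bases between them, so reads running past either end fall near or in the neighbour. Ctnnb1, which encodes beta-catenin, had 85400, 87846, 92404 and 97340 normalized counts, a log2 fold change of 0.13 that did not pass (adjusted p 1, authors' deposited table).

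Genes that the factors act on were read as separate lists. Of 12 genes known to be induced through TCF/LEF sites, 6 were higher and 0 lower in the authors' test, against 1.54% and 1.92% of the 30237 genes tested. The median log2 fold change of the 12 was 2.09. These genes are known Wnt responders, and earlier results on these samples were known when the list was written, so their count is not independent evidence. Those that passed were T, Sp5, Dkk1, Axin2, Cdx1 and Rnf43. Dkk1, a secreted Wnt inhibitor, had 334 and 191 normalized counts in A and 1894 and 1040 in B (2.48 on the log2 scale and an adjusted p of 0.0371 in the authors' deposited table). Axin2, a scaffold of the destruction complex, had 2251 and 2436 in A and 11002 and 10714 in B, and Sp5, a zinc finger factor, 114 and 133 in A and 1416 and 1379 in B. By the authors' deposited table the log2 fold changes were 4.11 for T, 3.50 for Sp5, 2.21 for Axin2, 2.17 for Cdx1 and 2.00 for Rnf43. The fold changes of all 6, which were picked by passing the test, were larger than those of Tcf7 and Lef1. The 6 that did not pass were Ccnd1 (-0.28), Lgr5 (-0.09), Notum (0.27), Znrf3 (0.64), Nkd1 (2.00) and Cdx2 (2.86).

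Of 6 naive genes known to be repressed by TCF7L1, Nr0b1 is X-linked and listed at 0. Of the other 5, with a median log2 fold change of -0.01, 2 values lay above 0 and 3 below. In either direction 0 passed, against 3.46% of the 30237 genes tested. With so few genes, 0 calls does not set this list apart from that share. In DESeq 0 of the 5 had an unadjusted p under 0.05, against 10.5% of the 30237 genes. Limma also called 0, with 1 at an unadjusted p under 0.05, where 20.7% of 20465 genes lay. Esrrb, a nuclear receptor of the naive state, had 99671, 114566, 95922 and 116845 normalized counts in A1, A2, B1 and B2, so the groups overlapped. Nanog had 77882 and 75891 in A and 66718 and 55379 in B, with both B libraries lower (-0.33 on the log2 scale and an adjusted p of 0.602 in the authors' deposited table).

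**Figure D4:**
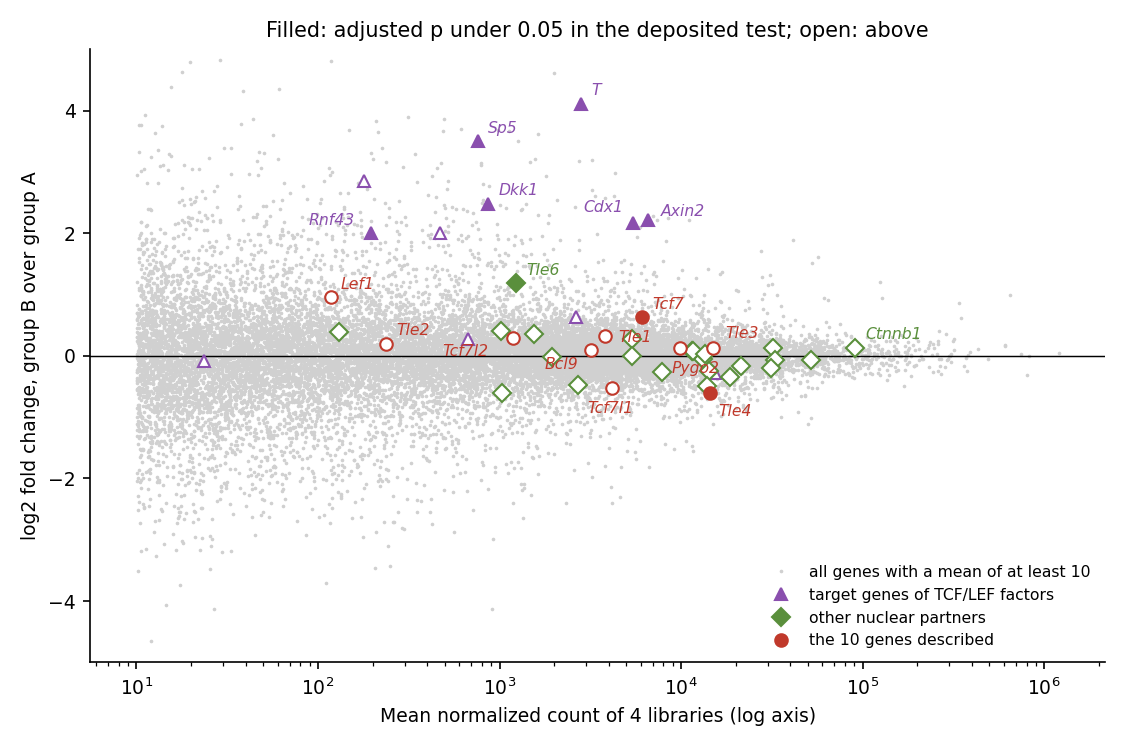
log2 fold change of group B over group A (authors' deposited table) against the mean normalized count (log axis) for 20465 genes (grey, 4 of them outside the axis), the 10 genes (circles), other nuclear partners (diamonds) and induced target genes (triangles). Filled symbols passed an adjusted p of 0.05. Tcf7 and Tle4 are filled and lie at 0.63 and -0.61, nearer to 0 than the filled target genes, which lie at 2.00 to 4.11. The open target genes lie at -0.28 to 2.86.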

How the data were processed

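The submitters' processing notes name STAR, DESeq and mm10 with no version, and the labels' protocols describe TRIzol extraction and stranded TruSeq libraries. How reads were counted, on which strand and with which annotation is not given in the sources used here. Per the file headers, the authors' deposited table holds the mean normalized count of all samples and of each group (a signal per gene), the fold change of group B over group A, its log2, and p-values with their adjustment. Its 46608 rows hold 46603 gene IDs.

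The authors' test was used as deposited, at an adjusted p of 0.05. Each group mean was split into the whole reads of its 2 libraries (tolerance 1e-06, all 28616 and 28353 genes with a mean in A and B). For 1700 and 11 highly counted genes a second pair of whole numbers also lay within that tolerance, and the pair used was at least 20.5 times nearer in every gene. Libraries were numbered by total, not by the labels' replicate numbers. The recovered counts were fitted by limma 3.58.1 (R 4.3.3, variance trend on) as log2(normalized count + 1), for genes averaging at least 10. Tests were two-sided and p-values adjusted by Benjamini-Hochberg. This scale understates changes of low genes. Both steps were tested on simulated data. The simulation gave every gene the same added variation between libraries, and every changed gene a larger change than that of Tcf7 or Tle4. It therefore does not speak for limma at changes of their size. Other pseudocounts, filters, scalings, a threshold of 0.1 and each library left out were tried. Positions and lengths are from GENCODE M21.

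The genes and lists were chosen with earlier results of these data known. All 10 genes are named, with members of the nuclear partner and target gene lists past the threshold (or the 2 of highest mean) and the 3 genes nearest in pattern to each gene past it. Marker genes were named after their values were seen. P-values measure the spread between these samples.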

Additional observations from a re-analysis of the deposited data

How the results depend on the processing

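Of the 10 genes, 2 passed in the authors' test at an adjusted p of 0.05 and 2 at 0.1. Limma called 0 of them with all libraries, whether with a pseudocount of 1, 0.5 or 8, a mean of at least 10 or 50, no filter, total count scaling or upper quartile scaling, with an adjusted p of 0.0568 to 0.0685 for Tcf7 and 0.0812 to 0.102 for Tle4. Leaving out 1 library left 1 library in a group, so only log2 fold changes are given for these fits. Without B1 they were -0.82 for Tle4, -0.67 for Tcf7l1 and 0.65 for Tcf7. Without B2 they were -0.43, -0.39 and 0.62. Signs reversed for Tle2 without A2 (-0.0714) and without B2 (-0.39), for Bcl9 without A1 (-0.12) and without B2 (-0.0739), and for Pygo2 without A1 (-0.0018). The cause was not tested. The other 7 genes kept their direction in all 11 limma settings, and the median log2 fold change of all genes lay between -0.02 and 0.01 in each. No paired analysis was possible because the recovered libraries carry no replicate number of the labels. Counting error is widest for Lef1 and Tle2, the genes with the lowest counts. In both genes, libraries of at least 1 group differed by more than that error. For Lef1 this held for A1 and A2 but not for B1 and B2. What more depth would change was not tested.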
